A study of Mus musculus with 6 samples.

Results

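Expression of the proteasome genes was examined in the epididymal fat pad (eWAT, a visceral white adipose depot) of obese mice. The members were all genes whose single annotated symbol begins with Psma, Psmb, Psmc, Psmd, Psme, Psmf or Psmg followed by a digit. That rule found 50 of 19938 genes. Of these, 48 encode subunits, regulators or assembly chaperones of the proteasome, and 2 (Psmc3ip and Psme3ip1) share only the form of the symbol. The tissue came from male C57BL6/J mice that were placed on high-fat diet (HFD) when 6 weeks old and kept on it for 12 weeks. All mice had received a recombinant adeno-associated virus (rAAV) of serotype Rec2 into eWAT. It carried either yellow fluorescent protein (rAAV-YFP, the control) or Lmo3, a LIM-domain adaptor of transcription factors (rAAV-Lmo3). One field of the sample descriptions names LacZ in place of YFP as the control transgene, and YFP, the name in the titles, was kept. Each group held 3 Affymetrix mouse Gene ST arrays, and each array measured RNA pooled from 2 mice. The transgenes were driven by a CMV enhancer and chicken beta-actin promoter, which is not restricted to adipocytes. The control mice thus carried the vector, its promoter and the diet as well.

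The proteasome is the protease that degrades ubiquitin-tagged proteins. Its 20S core is a barrel of alpha rings, which gate the entry, and beta rings, of which 3 subunits (Psmb5, Psmb6 and Psmb7) cut the substrate. The 19S cap docks on the barrel with a base, whose ATPases unfold the substrate, and a lid, which removes the ubiquitin chain. Under interferon gamma, and constitutively in many immune cells, Psmb8, Psmb9 and Psmb10 take the places of Psmb5, Psmb6 and Psmb7, and the activator formed by Psme1 and Psme2 can replace the cap. This immunoproteasome supplies peptides for MHC class I. The transcription factor NFE2L1 induces the genes of core and cap together when proteasome activity is short, and in brown fat it is known for adjusting proteasome supply to cold and obesity.

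Values are RMA intensities on the linear scale, which are relative brightness units of 1 probe set and cannot be set against those of another gene. Differences are log2 intensity in rAAV-Lmo3 minus rAAV-YFP (± SE from limma, 3 arrays a group). Of the 50 members, 46 were bright enough to be tested among 11963 genes. The 4 left out as dim (under a mean intensity of 114) were Psma8, a testis form of an alpha subunit, with 49 to 57, Psmb11, the catalytic subunit of thymic cortical epithelium, with 68 to 78, the chaperone Psmg3, with 88 to 111, and Psmc3ip, with 64 to 81. Median intensities of the arrays lay between 123 and 127.5. The arrays rAAV-YFP 2 and rAAV-Lmo3 1 stood apart. Over the genes tested, their correlation with each of the other arrays averaged 0.962 and 0.959, and the remaining ones averaged 0.973 to 0.977. The probe set for Lmo3 itself read 24 to 26 on all 6 arrays and was too dim to check the labels. The 8 adipocyte markers (among them Adipoq and Plin1) were all above the dim limit, with summed intensities of 57387 to 68399 in rAAV-YFP and 54009 to 67386 in rAAV-Lmo3. In RNA of whole tissue, fewer cells of a type and less RNA per cell cannot be told apart.

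Most proteasome genes read slightly higher in rAAV-Lmo3 tissue, and none passed the test across all genes. Of the 46 tested, 41 (89.1%) had a difference above 0, with a median of 0.13. Over all genes tested, 50.3% were above 0 and the median was 0.00. After Benjamini-Hochberg adjustment over all genes, limma called 0 members, as it called 0% of all genes, and the smallest adjusted p of a member was 0.970. At an unadjusted p under 0.05, 3 members were higher (Psma1, Psmd4 and Psmg4), against 2.27% of all genes, and 0 were lower, against 2.4% of all genes. The groups did not overlap for 10 members that were higher, against 4.53% of all genes, and for 1 that was lower (Psmd14), against 5.95%. The size of these differences depended on 1 array, rAAV-Lmo3 1: without it the median was 0.05 and 30 of 46 members lay above 0.

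**Figure D1:**
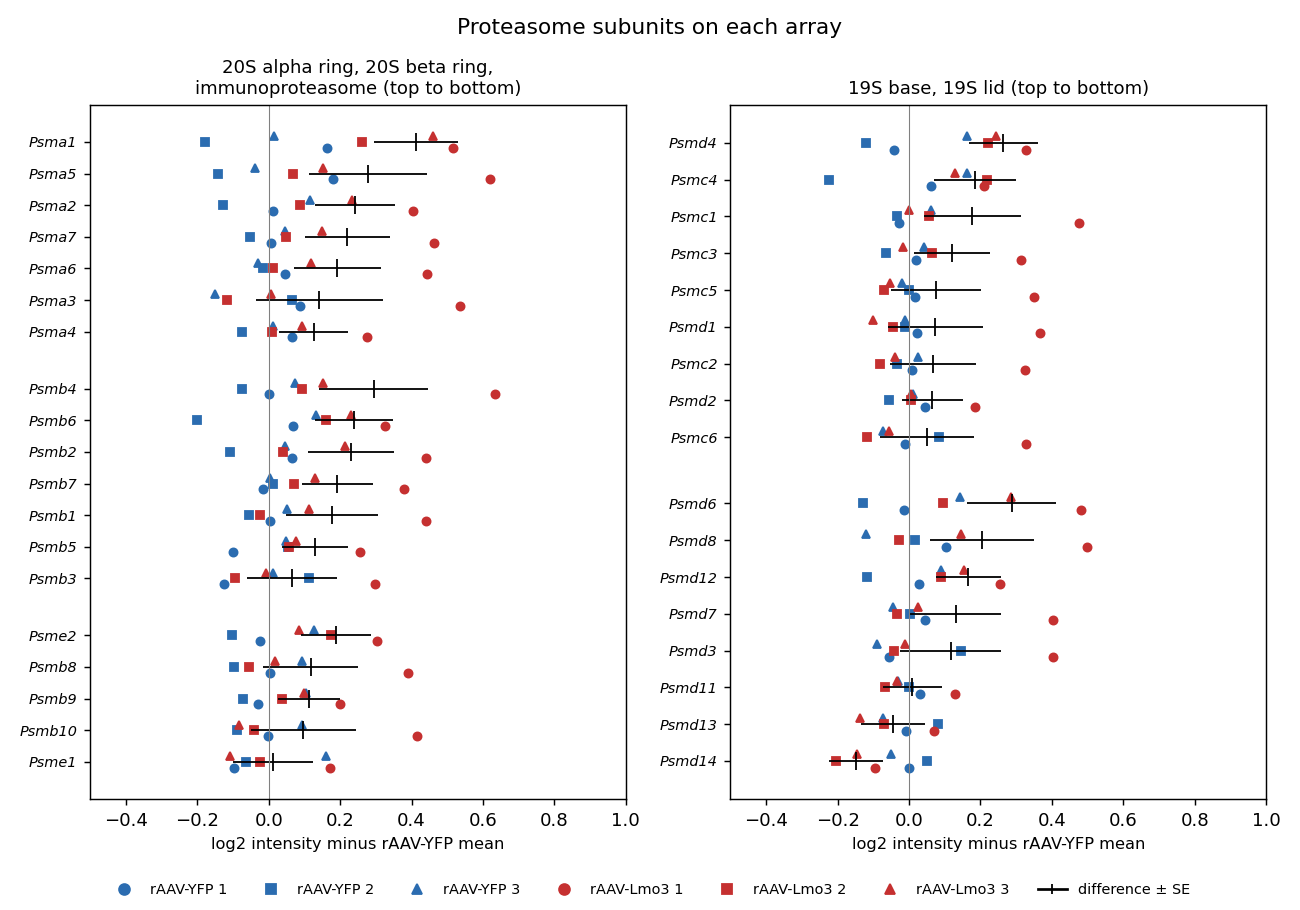
Log2 intensity of each 20S, immunoproteasome and 19S gene on each array, minus the mean of the 3 rAAV-YFP arrays (x axis), 1 row a gene and ordered by difference within each block. Blue symbols are rAAV-YFP, red symbols rAAV-Lmo3, and the black tick with its line is the difference ± SE. The red circles (rAAV-Lmo3 1) lie farthest right for all 14 genes of the 20S core and all 5 of the immunoproteasome.

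The 20S core had the highest median difference of the 5 structural groups compared (core, cap, immunoproteasome, assembly chaperones and other regulators) with all 6 arrays at equal weight. The chaperones had a higher one without rAAV-Lmo3 1 (0.12 against 0.10), without both arrays that stood apart (0.12 against 0.07) and with array weights (0.13 against 0.11). All 14 tested core genes were above 0, with a median of 0.21. Of these, 6 were higher with groups that did not overlap, against 4.53% of all genes. The alpha ring had a median of 0.22 and the beta ring one of 0.19. Psma1, an alpha-ring subunit, had intensities of 1519, 1199 and 1372 in rAAV-YFP and 1941, 1626 and 1866 in rAAV-Lmo3. Every rAAV-Lmo3 array was above every rAAV-YFP array. The difference was 0.41 ± 0.12, a 1.33-fold higher level, and limma gave it an adjusted p of 0.970. It was past an unadjusted 0.05 with all arrays and without each array in turn, with differences between 0.32 and 0.49, and it was 0.27 without both arrays that stood apart.

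Psma2, another alpha-ring subunit, read 721, 654 and 774 in rAAV-YFP and 946, 759 and 840 in rAAV-Lmo3. The groups overlapped, because rAAV-Lmo3 2 lay below rAAV-YFP 3, and the difference was 0.24 ± 0.11. The other alpha subunits had differences of 0.28 (Psma5), 0.22 (Psma7), 0.19 (Psma6), 0.14 (Psma3) and 0.13 (Psma4), and of these only Psma7 had groups that did not overlap.

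The 3 catalytic subunits of the constitutive core were each highest on rAAV-Lmo3 1. Psmb5, which cuts after hydrophobic residues, had intensities of 457, 508 and 506 in rAAV-YFP and 585, 509 and 516 in rAAV-Lmo3. Psmb6, which cuts after acidic residues, had intensities of 2147, 1783 and 2242 in rAAV-YFP and 2566, 2286 and 2402 in rAAV-Lmo3. Psmb7, which cuts after basic residues, had intensities of 1390, 1418 and 1409 in rAAV-YFP and 1826, 1476 and 1537 in rAAV-Lmo3. For none of the 3 did the groups overlap, although for Psmb5 the gap between rAAV-YFP 2 and rAAV-Lmo3 2 was 1 intensity unit. The differences were 0.13 ± 0.09 for Psmb5, 0.24 ± 0.11 for Psmb6 and 0.19 ± 0.10 for Psmb7. Without rAAV-Lmo3 1 those of Psmb5 and Psmb7 were 0.07 and 0.10, and without rAAV-YFP 2 that of Psmb6 was 0.14. The structural beta subunits had differences of 0.29 (Psmb4), 0.23 (Psmb2), 0.18 (Psmb1) and 0.07 (Psmb3), and of these only Psmb4 had groups that did not overlap.

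Several core genes had more than 1 probe set. The other 2 probe sets for Psma3 gave 0.14 and 0.15, and the second for Psmb3 gave 0.11, all with groups that overlapped. The dimmer probe set for Psma5 gave 0.36, with groups that did not overlap, whereas the brighter gave 0.28 ± 0.17 with groups that did.

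The 19S cap had a lower median. Of its 17 genes 15 were above 0, with a median of 0.12. The groups did not overlap for 1 that was higher and 1 that was lower, close to the shares of all genes (4.53% and 5.95%). In the base, all 9 genes were above 0 with a median of 0.08. Psmd4, the ubiquitin receptor of the base, had intensities of 660, 625 and 760 in rAAV-YFP and 852, 792 and 805 in rAAV-Lmo3. Its groups did not overlap, and the difference was 0.26 ± 0.10 (1.20-fold, limma adjusted p = 0.970). It lay between 0.20 and 0.35 without each array in turn, and in these 6 settings it was past an unadjusted 0.05 only without rAAV-YFP 3. The ATPases Psmc1 to Psmc6 had differences of 0.05 (Psmc6) to 0.19 (Psmc4), and the large scaffold subunits Psmd1 and Psmd2 of 0.07 each.

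In the lid, 6 of 8 genes were above 0, with a median of 0.12. Psmd14, the deubiquitinase of the lid that strips the chain from the substrate, had intensities of 1357, 1405 and 1311 in rAAV-YFP and 1271, 1179 and 1227 in rAAV-Lmo3. It was lower on every rAAV-Lmo3 array than on any rAAV-YFP array, by -0.15 ± 0.08 (limma adjusted p = 0.970), and the difference was between -0.17 and -0.12 without each array in turn. It was the only member past an unadjusted 0.05 in the lower direction by the methods' t-test, which pools no spread across genes. That test put 2.69% of all genes past 0.05 in the lower direction, so 1 of 46 members is close to the share of all genes. In the higher direction it put 2 members past 0.05 (Psma1 and Psmd4), against 1.95% of all genes.

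The lid subunits Psmd6 and Psmd12, which are structural, had differences of the opposite sign to Psmd14. Psmd6 had intensities of 615, 568 and 686 in rAAV-YFP and 868, 663 and 757 in rAAV-Lmo3, a difference of 0.29 ± 0.13. Psmd12 had intensities of 904, 817 and 943 in rAAV-YFP and 1058, 943 and 986 in rAAV-Lmo3, a difference of 0.17 ± 0.09. For Psmd6 the groups overlapped, and for Psmd12 they met at 943, the value of both rAAV-YFP 3 and rAAV-Lmo3 2. The remaining lid genes ranged from -0.05 (Psmd13) to 0.20 (Psmd8).

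The immunoproteasome genes were all above 0 but by little, with a median of 0.11 over 5 genes. For 0 of 5 did the groups separate, where 4.53% of all genes did so higher and 5.95% lower. Psmb8, which takes the place of Psmb5, had intensities of 686, 639 and 730 in rAAV-YFP and 896, 658 and 693 in rAAV-Lmo3 (0.12 ± 0.13). Psmb9, which takes that of Psmb6, had intensities of 471, 458 and 517 in rAAV-YFP and 553, 494 and 515 in rAAV-Lmo3 (0.11 ± 0.09). Psmb10, which takes that of Psmb7, had intensities of 734, 691 and 784 in rAAV-YFP and 981, 715 and 694 in rAAV-Lmo3 (0.10 ± 0.15). In each case rAAV-Lmo3 1 was the highest array and the other rAAV-Lmo3 arrays lay within the rAAV-YFP range. Without rAAV-Lmo3 1 the differences were -0.02 for Psmb8 and -0.06 for Psmb10, and 0.07 for Psmb9.

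The subunits of the interferon-inducible activator differed from each other in value. Psme1 had intensities of 1889, 1934 and 2256 in rAAV-YFP and 2275, 1986 and 1872 in rAAV-Lmo3, a difference of 0.01 ± 0.11. Psme2 had intensities of 705, 668 and 784 in rAAV-YFP and 886, 810 and 761 in rAAV-Lmo3, a difference of 0.19 ± 0.10. The ranges of both groups overlapped for both genes. A further probe set, annotated to Psme2 together with its near-identical copy Psme2b, gave 0.17 with groups that did not overlap, so signal from the copy cannot be separated from that of Psme2 there.

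Whether the immuno form shifted relative to the constitutive form was asked within each array, as log2 of the immuno subunit minus log2 of the subunit it replaces. Only the change of this value between groups can be read, since its level compares different probe sets. For Psmb9 against Psmb6 the values were -2.19, -1.96 and -2.12 in rAAV-YFP and -2.21, -2.21 and -2.22 in rAAV-Lmo3. All rAAV-Lmo3 values were below all rAAV-YFP values and rAAV-YFP 1 lay closest to them. The difference was -0.13 ± 0.07, with an exact two-sided permutation p of 0.1, the smallest that 3 arrays against 3 can give (0.3 adjusted over the 3 pairs). It was -0.06 without rAAV-YFP 2, whose value is the highest of the 6, and -0.06 without both arrays that stood apart. Psmb10 against Psmb7 differed by -0.10 ± 0.09 (exact permutation p = 0.4, adjusted 0.6) and Psmb8 against Psmb5 by -0.01 ± 0.11 (exact permutation p = 1, adjusted 1), and in both the groups overlapped.

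**Figure D2:**
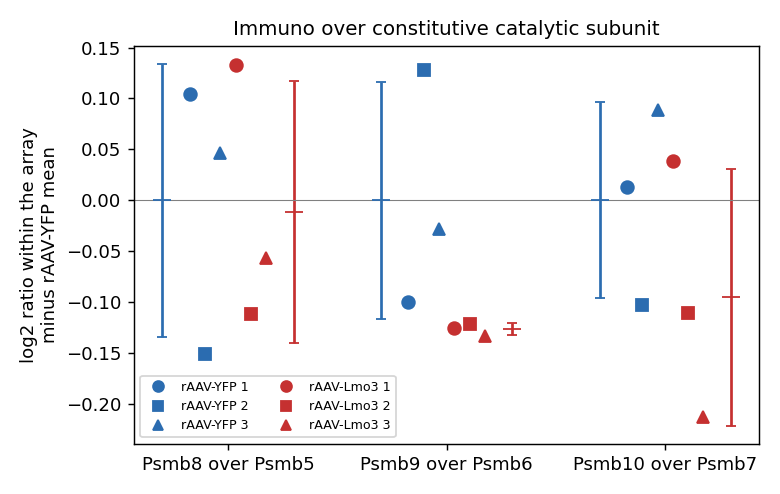
Log2 ratio of each immunoproteasome subunit to the constitutive subunit it replaces, per array, minus the rAAV-YFP mean (y axis). Ticks with bars are group means ± SD over 3 arrays. For Psmb9 over Psmb6 the red rAAV-Lmo3 points lie together below the blue rAAV-YFP points, and for the other pairs the colours overlap.

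The assembly chaperones were mostly above 0 too. Of 6 tested, 5 were, with a median of 0.15, and 3 were higher with groups that did not overlap, against 4.53% of all genes. Psmg4, a chaperone of alpha-ring assembly, had intensities of 163, 172 and 167 in rAAV-YFP and 232, 179 and 195 in rAAV-Lmo3. All rAAV-Lmo3 arrays were above all rAAV-YFP arrays, by 0.26 ± 0.11 (limma adjusted p = 0.970), and by 0.16 without rAAV-Lmo3 1. Of the 6 settings with 1 array left out, it was past an unadjusted 0.05 only without rAAV-Lmo3 2. Psmd10, Psmd9 and Psmd5 guide the ATPases of the base into place and stay out of the finished particle.

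Psmd10 had intensities of 403, 351 and 388 in rAAV-YFP and 426, 420 and 446 in rAAV-Lmo3, a difference of 0.18 ± 0.08. Psmd9 had intensities of 289, 312 and 309 in rAAV-YFP and 344, 319 and 326 in rAAV-Lmo3, a difference of 0.12 ± 0.08. Psmd5 had intensities of 583, 550 and 645 in rAAV-YFP and 710, 624 and 723 in rAAV-Lmo3, a difference of 0.21 ± 0.10. The groups stood apart for Psmd10 and Psmd9 and overlapped for Psmd5. Psmd10 was 0.19 without rAAV-Lmo3 1, 0.12 without rAAV-YFP 2, which was its lowest array, and 0.13 without both. Of the other chaperones, Psmg2 had a difference of 0.13 and Psmg1 one of -0.06.

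The other regulators hardly differed, with a median of 0.01 over 3 genes. Psme3, the nuclear activator, had intensities of 1057, 972 and 1047 in rAAV-YFP and 1022, 1021 and 1043 in rAAV-Lmo3 (0.01 ± 0.07). Psme4, a large single-chain activator of the core, had intensities of 1030, 801 and 944 in rAAV-YFP and 930, 1042 and 1077 in rAAV-Lmo3 (0.14 ± 0.12). Psmf1, which inhibits the isolated core, had intensities of 822, 843 and 880 in rAAV-YFP and 741, 836 and 847 in rAAV-Lmo3 (-0.07 ± 0.09). The groups overlapped for all 3. Psme3ip1, which is not a proteasome subunit, had a difference of -0.01.

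The common shift was greatest on 1 array. rAAV-Lmo3 1 was the highest of the 6 arrays for 36 of 46 members (78.3%), where it was highest for 25.5% of all genes tested, and it was highest for all 14 core genes, 14 of 17 cap genes, all 5 immunoproteasome genes and 3 of 6 chaperones. rAAV-YFP 2 was the lowest array for 25 members (54.3%), against 25.6% of all genes. Relative to the rAAV-YFP mean, the median core gene read 0.44 on rAAV-Lmo3 1, 0.05 on rAAV-Lmo3 2 and 0.14 on rAAV-Lmo3 3. The median cap gene read 0.33, -0.03 and -0.01 on the same arrays, and the median immunoproteasome gene 0.30, -0.02 and 0.02. The chaperones were spread more evenly, at 0.20, 0.08 and 0.19.

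Genes of the core, the cap and the immunoproteasome varied together between arrays. The mean pairwise correlation over the 6 arrays was 0.81 among core genes, 0.57 among cap genes, 0.81 among immunoproteasome genes and 0.27 among chaperones, against 0.01 over all genes tested. Within groups, after the group means were taken off, it was 0.74 among core genes, 0.63 among cap genes, 0.86 among immunoproteasome genes and 0.09 among chaperones. All points share the same 6 arrays, so these values are descriptions.

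**Figure D3:**
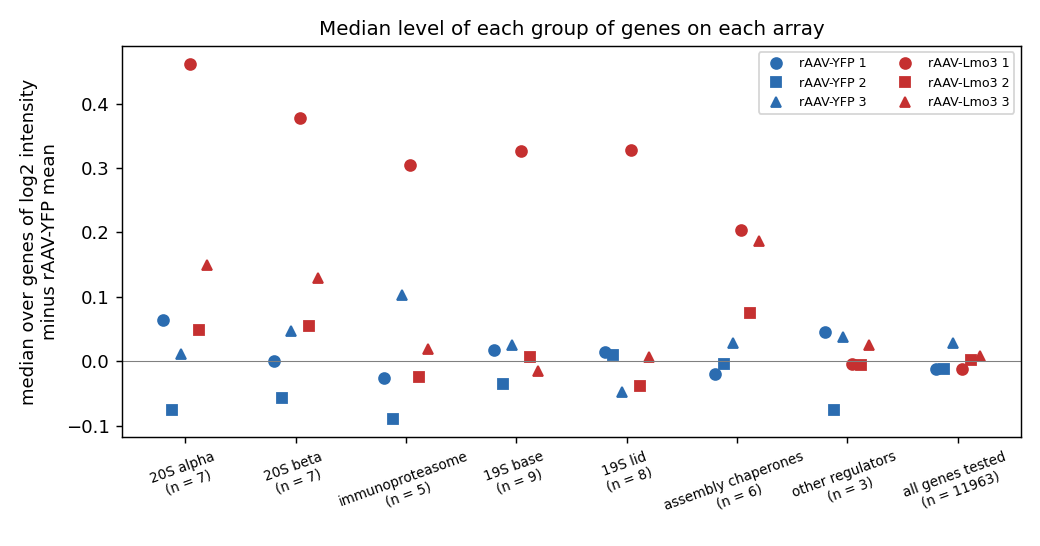
Median over the genes of each group of log2 intensity minus the rAAV-YFP mean (y axis) on each array, with the number of tested genes under each name. rAAV-Lmo3 1 (red circle) reads 0.46 for the alpha ring and 0.38 for the beta ring, while all genes tested stay near 0 on every array.

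Without rAAV-Lmo3 1 the medians of core and chaperones lay above 0 and those of cap and immunoproteasome did not. The core had 12 of 14 genes above 0 with a median of 0.10, and the chaperones 5 of 6 with a median of 0.12. The cap had 8 of 17 above 0 with a median of -0.0048, and the immunoproteasome 2 of 5 with a median of -0.02. With rAAV-YFP 2 left out as well, the medians were 0.07 for the core, 0.12 for the chaperones, -0.01 for the cap and -0.07 for the immunoproteasome. Psma1 was the only member past an unadjusted 0.05 in either case, where 2.49% and 2.36% of all genes were past it in the higher direction, so the count of 1 in 46 is close to that of all genes.

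**Figure D4:**
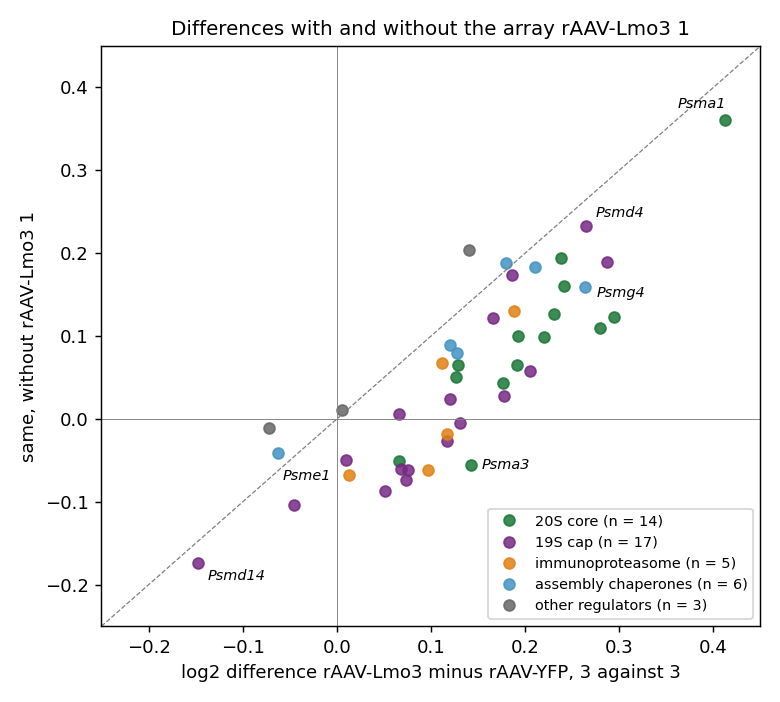
Log2 difference of each member with all 6 arrays (x axis) against the same difference without rAAV-Lmo3 1 (y axis), coloured by structural group, with the line of equality dashed. Core genes (green) stay mostly above 0 on the y axis, and cap genes (purple) spread to both sides of it.

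Cell type markers were read on the same arrays. The 12 macrophage markers, all above the dim limit and including Adgre1 and Cd68, summed to 15994 to 33159 in rAAV-YFP and 19385 to 33067 in rAAV-Lmo3. Their mean log2 level, centred per gene, was lowest on the same arrays that stood apart, at -0.71 on rAAV-YFP 2 and -0.41 on rAAV-Lmo3 1, and lay between 0.04 and 0.44 on the others. Of the 14 core genes, 9 were lowest on the first of these arrays and all 14 were highest on the second. The 8 adipocyte markers were highest in mean level on these same arrays, at 0.19 and 0.14. With the macrophage level as a covariate, the core median was 0.22 and that of the immunoproteasome 0.12. Of 10 T and NK cell markers only 3 were above the dim limit, and Cd3d, Cd3g, Cd4, Cd8a, Cd8b1, Klrb1c and Ncr1 were below it. Of the 3, 0 were above 0 and the median was -0.30. Cd3e, a chain of the T cell receptor complex, was lower on every rAAV-Lmo3 array (183, 245 and 220) than on any rAAV-YFP array (268, 248 and 355), by -0.42 ± 0.17. The B and plasma cell markers (0 of 2 tested above 0) had a median of -0.38 and the mesothelial markers (0 of 4 tested above 0) one of -0.41. Both lists were highest in mean level on 1 array, rAAV-YFP 3, at 0.85 and 1.09. The mesothelial level was -0.44 and -0.02 on the other rAAV-YFP arrays. For every tested gene of these lists the groups overlapped. In the other direction, 11 of 12 macrophage markers were above 0, with a median difference of 0.13. The groups overlapped for all 12, and 0 passed an unadjusted 0.05 in either direction. This direction depended on rAAV-YFP 2, without which the differences ranged from -0.48 (Itgax) to 0.02 (Cd14). Adipocyte markers had 1 of 8 above 0 and a median of -0.05, and fibroblast and progenitor markers 2 of 6 and a median of -0.05. The 6 endothelial markers had a median difference of -0.15 and were lowest on rAAV-Lmo3 1 (-0.27, against -0.11 to 0.25 elsewhere). The fit with the macrophage level as a covariate was added after seeing the data and is 1 setting on 6 arrays. The macrophage level was low on 1 array of each group, so this fit could change the difference between groups only a little. It is no test of the part of macrophages. The part of these cell types in the values of the core and the immunoproteasome was not tested.

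The other genes of the pathway had medians nearer to 0. Of 15 further partners of the proteasome, 12 were above 0 with a median of 0.06, and 0 passed an unadjusted 0.05 in either direction. Among them, Sem1, the smallest subunit of the lid, had a difference of 0.26 ± 0.12. Pomp, the chaperone that guides the beta ring onto the alpha ring, was higher on every rAAV-Lmo3 array than on any rAAV-YFP array, by 0.16 ± 0.08 (0.15 without rAAV-Lmo3 1).

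The list for the NFE2L1 branch, which controls transcription of the subunits, had 2 of 13 genes above 0 and a median of -0.05. It holds genes that act for and against this branch together, with Nfe2l2, Keap1 and Bach1 among them. The count therefore gives no direction of the branch. Ddi2, also listed, had no value among the genes used. Nfe2l1 itself had a difference of -0.07 ± 0.09. Mafk, a small Maf protein that pairs with NFE2L1 on DNA, was the 1 gene of the list past an unadjusted 0.05. It was lower, as were 2.4% of all genes at that limit, and its limma adjusted p was 0.970. It had intensities of 310, 347 and 306 in rAAV-YFP and 255, 271 and 269 in rAAV-Lmo3, a difference of -0.27 ± 0.08 with groups that did not overlap. Syvn1, the ubiquitin ligase of the endoplasmic reticulum that acts on NFE2L1, had a difference of -0.33 ± 0.14.

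Upstream of the proteasome, 8 of 13 genes for ubiquitin and its E1 and E2 enzymes were above 0, with a median of 0.01 and 0 past an unadjusted 0.05. The conjugating enzymes Ube2a and Ube2k had differences of 0.17 ± 0.09 and 0.12 ± 0.08. Among 15 genes of interferon gamma signalling and class I presentation, 11 were above 0 with a median of 0.02, and 1 passed an unadjusted 0.05. That was Ifngr1, a chain of the interferon gamma receptor, with 2399, 2323 and 2059 in rAAV-YFP and 1885, 1879 and 1902 in rAAV-Lmo3. Its difference was -0.26 ± 0.09 (limma adjusted p = 0.970), and 2.4% of all genes were lower at that limit. Irf1, a factor that drives Psmb9, had a difference of 0.20 ± 0.18, which was 0.01 without rAAV-Lmo3 1. Ifng was below the dim limit.

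Because genes of these groups varied together, the promoters of the members were read from RefSeq (GRCm38.p6) for letters of the elements known to drive proteasome genes. A promoter was found for 42 of the 50 members (250 bases before to 50 after the start, both strands searched). The antioxidant response element bound by NFE2L1 with a small Maf was searched as TGACNNNGC, the CCAAT box bound by NF-Y as CCAAT, the interferon-stimulated response element as GAAANNGAA and the interferon gamma-activated site as TTCNNNGAA. The NFE2L1 element was found at 6 of 42 members (14.3%) and at 14% of 27025 genes. CCAAT was found at 16 members (38.1%), and at 41.1% of all genes. By group it was found at 7 of 12 core genes (58.3%, with Psmb11, which was too dim to test, among the 7), at 28.6% of cap genes, 20% of immunoproteasome genes and 16.7% of chaperones. The interferon-stimulated element was found at 7 members (16.7%), of the immunoproteasome only at Psme1, and at 9.76% of all genes. The gamma-activated site was found at 3 members (7.14%), of the immunoproteasome only at Psmb8, and at 9.55% of all genes.

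The last 100 bases before the start are shown for Psma1 and Psmd4, the members of core and cap with the smallest p, and for Psmb5 and Psmb6, the core genes with the NFE2L1 element. Each is written 5′ to 3′ on the strand of the gene, and capitals mark the matches. They are CCAAT for Psma1 (chr7:114276117-114276216, minus strand), the reverse complements of CCAAT and of the interferon-stimulated element for Psmd4 (chr3:95042615-95042714, minus strand), and the NFE2L1 element for Psmb5 (chr14:54617996-54618095, minus strand) and Psmb6 (chr11:70525257-70525356, plus strand).
Psma1: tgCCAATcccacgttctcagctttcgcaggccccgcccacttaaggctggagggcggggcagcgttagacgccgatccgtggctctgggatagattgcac
Psmd4: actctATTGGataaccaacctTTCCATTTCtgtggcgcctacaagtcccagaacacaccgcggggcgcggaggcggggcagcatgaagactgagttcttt
Psmb5: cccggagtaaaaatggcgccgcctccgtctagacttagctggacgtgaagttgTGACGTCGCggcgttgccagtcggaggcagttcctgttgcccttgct
Psmb6: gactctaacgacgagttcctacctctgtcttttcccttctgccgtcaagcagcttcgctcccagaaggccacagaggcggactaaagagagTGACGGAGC
The members with the NFE2L1 element had differences of 0.13 for Psmb5, 0.24 for Psmb6, 0.05 for Psmc6, 0.17 for Psmd12, 0.12 for Psmd9 and 0.14 for Psme4, against the median of 0.13 over all members. A match of letters is a description of the window and not evidence of binding.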

How the data were processed

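Total RNA of eWAT was measured on 6 arrays, 3 rAAV-YFP and 3 rAAV-Lmo3, grouped by the labels. The deposited values are intensity values per probe set, which the authors summarised by RMA in Affymetrix Expression Console 1.1 (background correction, quantile normalization across arrays and median polish) and rounded to whole numbers on the linear scale. Quantile normalization removes any shift common to all genes. log2 was taken here from the deposited intensities. Among probe sets with exactly 1 symbol, the brightest by mean was kept per gene (19938 genes), and the dimmest 40% (7975 genes) were left out. Tests across the other 11963 genes used lmFit and two-sided eBayes of limma (version 3.58.1, R version 4.3.3), with Benjamini-Hochberg adjustment over all of them and a threshold of 0.05. Unadjusted p-values of single genes come from the same fit. The 3 catalytic pairs were compared by an exact permutation test. The steps were tested on simulated data, where the planted differences were all larger than those of the members and the noise was independent between genes. That test therefore does not cover differences as small, or genes as correlated, as those described here. Replicates are separate pools, and p-values therefore set the difference between groups against the variation between pools of 2 mice. In limma that spread is shared across genes. Of the pairs of arrays, 0 were identical. No batch or date of hybridization is given by the labels, and the number of arrays limits the precision.

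The members and lists were chosen with earlier results of these data known. Values on every array were given for the 6 catalytic subunits, Psme1, Psme2 and up to 4 members of each structural group with the smallest p, and of each pathway list up to 2 genes were named. Nfe2l1 was named beside them after its value was seen, as were Ifng, the second probe sets and the remaining members. The alternatives were median centring of the arrays, quantile normalization repeated, array weights, a trended and robust prior, the methods' t-test, a replicate block, keeping dim genes, dropping the dimmest 60%, averaging a gene's probe sets, log2(intensity + 16) and each array left out. Dropping rAAV-YFP 2 and rAAV-Lmo3 1 together, and a covariate for the macrophage level, were added after seeing the data. Sequences and names come from RefSeq tables of GRCm38.p6. The build behind the arrays' annotation is not given in the sources used here.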

Additional observations from a re-analysis of the deposited data

Results flagged for a closer look

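Signal outside the values used for the members was found in 2 probe sets. The dimmer probe set for Psma5, which the choice of the brightest probe set left unused, had intensities of 322, 260 and 318 in rAAV-YFP and 440, 344 and 372 in rAAV-Lmo3, a difference of 0.36 on the log2 scale with groups that did not overlap. The probe set annotated to both Psme2b and Psme2, unused because it names more than 1 gene, had intensities of 690, 537 and 680 in rAAV-YFP and 715, 719 and 705 in rAAV-Lmo3, a difference of 0.17 with groups that did not overlap. In both, rAAV-YFP 2 was the lowest array.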

How the results depend on the processing

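The direction of the 21 members described on every array was kept in 359 of 377 values under 18 alternatives, and 18 reversed, all in Psme1, Psme3, Psmb8 and Psmb10. Many of the kept values were fixed in advance. The trended prior, the t-test, the replicate block, both changes of the dim filter and the averaging of probe sets cannot alter these differences. The share kept is therefore no measure of robustness. Psme1 was -0.029 after a second quantile normalization, -0.066 with array weights and -0.098 without both arrays that stood apart (added after seeing the data), and lay between -0.067 and 0.092 without each array in turn. Psme3 was -0.024, -0.0081 and -0.028 under the same settings, -0.0074 with the macrophage level as a covariate, and between -0.032 and 0.028 without each array. Psmb8 was -0.014 with array weights, -0.068 without both arrays and between -0.019 and 0.20 without each array. Psmb10 was -0.050, -0.11 and between -0.062 and 0.19 likewise. The number of members higher at an unadjusted p under 0.05 (3) ranged from 1 to 6 without each array (1 without rAAV-YFP 1, rAAV-YFP 2, rAAV-Lmo3 1 or rAAV-Lmo3 3, 5 without rAAV-YFP 3, 6 without rAAV-Lmo3 2) and was 1 without both arrays. Psma1 was among them each time and in all 18 alternatives. The number lower (0) was 1 by the methods' t-test (Psmd14). The 19S cap median lay between -0.0048 and 0.17 without each array and was -0.0078 without both, where the immunoproteasome median was -0.068. With array weights the medians were 0.11 for the core (0.21 with equal weights), 0.024 for the cap, -0.014 for the immunoproteasome and 0.13 for the chaperones, and 31 of 45 subunits and chaperones were above 0 (41 with equal weights). Without both, Psmb8 against Psmb5 differed by -0.16, Psmb10 against Psmb7 by -0.21 and Psmb9 against Psmb6 by -0.063, and the last was also -0.063 without rAAV-YFP 2. The cause of these moves was not tested beyond the arrays left out. Every alternative called 0 genes after adjustment. Of all genes, 271 were higher and 287 lower at an unadjusted p under 0.05; these were 167 higher without rAAV-YFP 1, 122 and 141 without rAAV-YFP 2, 143 and 140 without rAAV-Lmo3 3, 597 and 488 with the macrophage covariate, 317 and 216 after centring on the median, and 458 lower without the filter on dim genes. Replicate numbers did not pair the arrays (correlations of deviations of -0.55, -0.40 and 0.26), and a replicate block gave 2 members higher (Psma1 and Psma5), 0 genes after adjustment, and 216 higher and 237 lower of all genes. The arrays give no counts, and signal too close to background left 4 members untested.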
